A study of Mus musculus with 24 samples.

Results

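The promoters of the cytosolic ribosomal protein genes were examined in mouse embryonic stem cells as 57 intervals of open chromatin, out of 145143 consensus intervals in all. An interval was counted when the deposited annotation named it for a protein-coding gene called Rplp0, Rplp1, Rplp2, Rpsa, or Rpl or Rps plus a number, and placed it at most 1000 bp from that gene's start site on an autosome. The rule used names and positions and no counts. The 57 intervals belong to 57 genes. Of these, 28 encode proteins of the large subunit, 20 encode proteins of the small subunit including Rpsa, 3 encode the stalk proteins Rplp0, Rplp1 and Rplp2, and 6 are paralogues with restricted or less understood use (Rpl10l, Rpl39l, Rpl3l, Rpl7l1, Rpl22l1 and Rps27l).

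Open chromatin was mapped with ATAC-seq, where Tn5 transposase cuts and tags accessible DNA, after doxycycline was added to induce the long noncoding RNA Firre. The lines were a Firre KO line with an inducible Firre transgene (KO Firre, 6 libraries), a Firre KO line without it (KO control, 6), a line with the inducible transgene and an intact Firre gene (WT Firre, 5) and a WT line (WT control, 6). Each line had 1 library at each of 0, 30, 60, 90, 120 and 150 min, except that the WT Firre library of 60 min was not analysed here. All lines, controls included, received doxycycline and were grown on gelatin with LIF, the MEK inhibitor PD0325901 and the GSK3 inhibitor CHIR99021. The labels describe no separate cultures or clones within a line, so genotype and clone cannot be told apart, and p-values measure the spread between the libraries of 1 line each. The sources used here do not give the promoter or the insertion site of the transgene.

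Ribosomal proteins assemble with ribosomal RNA into the subunits that translate messenger RNA, and growing cells such as embryonic stem cells make them in near-equal amounts from genes scattered over the genome. Their promoters are known as GC-rich and often lack a TATA box, and their transcripts typically start at a cytosine within a run of pyrimidines, the terminal oligopyrimidine tract through which mTOR signalling controls their translation. Accessibility at a promoter is not a measure of transcript or protein amount.

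The sequences around the annotated start are printed for 5 members, to show how far their starts differ: those with the highest CPM (reads in the interval scaled to library size) of the large subunit, the small subunit and the stalk that had a RefSeq window, and the members with the most positive and most negative difference between the Firre KO control and the WT control. Each runs from 150 bases before the start to the first 20 transcribed bases, from RefSeq (GRCm38.p6, the same assembly as mm10). Capitals mark CCGGAAG or GGGCGG on either strand and the pyrimidine run at the start or, where there was no run, the annotated start base.
Rpl37 (chr15:5116463-5116632, plus strand): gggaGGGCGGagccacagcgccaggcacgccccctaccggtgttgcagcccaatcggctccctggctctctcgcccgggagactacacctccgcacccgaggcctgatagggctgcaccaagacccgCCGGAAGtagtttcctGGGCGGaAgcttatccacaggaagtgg
Rps19 (chr7:24884442-24884611, plus strand): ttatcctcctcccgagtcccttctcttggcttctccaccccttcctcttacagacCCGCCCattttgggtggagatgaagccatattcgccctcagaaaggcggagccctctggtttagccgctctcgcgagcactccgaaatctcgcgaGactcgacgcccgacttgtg
Rplp2 (chr7:141447501-141447670, plus strand): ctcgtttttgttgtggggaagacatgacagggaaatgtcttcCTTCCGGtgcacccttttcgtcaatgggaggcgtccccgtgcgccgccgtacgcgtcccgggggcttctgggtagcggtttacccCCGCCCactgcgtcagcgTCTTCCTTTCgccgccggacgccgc
Rps23 (chr13:90922972-90923141, plus strand): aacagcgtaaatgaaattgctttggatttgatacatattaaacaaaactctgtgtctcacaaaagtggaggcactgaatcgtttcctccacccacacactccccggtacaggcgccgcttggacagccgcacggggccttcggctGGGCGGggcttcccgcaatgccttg
Rpl39l (chr16:10170078-10170247, plus strand): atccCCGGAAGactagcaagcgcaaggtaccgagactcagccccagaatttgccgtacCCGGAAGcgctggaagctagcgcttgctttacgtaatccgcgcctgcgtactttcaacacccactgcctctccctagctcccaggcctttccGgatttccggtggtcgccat
Rplp2 carries a run of 10 pyrimidines over its start base C. The other 4 have an A or a G at the annotated start.

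Letters were counted in windows from 250 bases before to 50 after the start, for the 42 members with a RefSeq start inside their interval. The remaining 15 had no such window and were not searched. CCGGAAG, the core that ETS factors such as GABPA recognise, was present on either strand in 18 of 42 windows (42.9%), against 17.8% of 6858 windows at other protein-coding promoter intervals and 8.86% of all 32851 windows. A start base within a run of at least 5 pyrimidines was found in 28.6% of the members' windows, against 9.01% and 10.1%. GGGCGG, the GC box of SP1, was present in 57.1%, against 64.9% and 35.7%, and TATAAA, the TATA box, in 7.14%, against 7.31% and 13.6%. AAGATGG, the core of the YY1 motif, was present in 9.52% (7.22% and 6.34%), and CACGTG, the E-box, in 7.14% (10.1% and 7.15%). Each was read on both strands, and matches may overlap, as where the AAG that ends CCGGAAG begins AAGATGG. The median GC content was 59.2% in the members' windows, 61% in the windows of other promoters and 52.7% in all windows. A match describes letters in the window and does not show that a factor binds there.

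Counts in intervals totalled 5725518 to 14977148 per library, with a median of 7664147, and a member had a median of 15 to 576 counts per library. Over the 20 intervals named for Firre on the X chromosome, the KO lines had 18.4 to 28.9 CPM with the transgene and 6.67 to 14.5 CPM without it, and the lines with an intact gene had 117 to 141 CPM with the transgene and 82.9 to 101 CPM without it. All 6 markers of embryonic stem cells had a promoter interval, with a summed 176.5 to 252.4 CPM in every library, while 1 of 6 fibroblast markers (Pdgfrb) had one, at 4.967 to 10.23 CPM. Some libraries stood apart. The share of all counts lying in promoter intervals was 31.8% to 33.4% in the KO control and 29.3% to 30.5% in the WT control, with no overlap, and the 150 min library of WT Firre had the highest share of all, 34.2%. Within the KO control the libraries of 30 and 90 min had the highest shares, 33.4% and 32.9%.

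The members were more open than other promoters, and their levels differed widely among themselves. Their median was 25.85 CPM (interquartile range 20.54 to 31.5, n = 57 intervals), against 16.75 CPM (7.597 to 27.7) for 9955 other protein-coding promoter intervals, and 48 of 57 lay above the median of the other promoters. Per kb of interval the medians were 15.29 and 11.39 CPM, and again 48 of 57 lay above. The classes were close to each other except for the paralogues: the median was 25.58 CPM for the large subunit, 26.16 CPM for the small subunit, 27.87 CPM for the stalk and 13.01 CPM for the paralogues. These levels describe the groups, and no test was made of them, since intervals of a library are not replicates.

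The most open member was Rpl36, a large subunit protein (chr17:56611689-56615741), with a mean of 75.7 CPM over the 23 libraries. It was also the widest, at 4053 bp, and per kb it ranked 18 of 57. Rps19, a small subunit protein whose human orthologue is mutated in Diamond-Blackfan anaemia (chr7:24883628-24885126), came next with 61.6 CPM and was the highest per kb, with 41.1 CPM per kb. Rps21, Rpl37 and Rpl15 were also among the highest, with 49.0, 40.5 and 40.5 CPM. At the other end were Rpl39l, used in male germ cells (chr16:10170099-10170498), with 2.15 CPM, Rpl3l, used in heart and skeletal muscle (chr17:24728350-24728827), with 3.75 CPM, Rpl6, a standard large subunit protein (chr5:121206075-121206783), with 4.57 CPM, and Rpl10l, a testis paralogue (chr12:66283615-66284917), with 9.41 CPM. Rpl37a and Rpl8 had 15.9 and 16.02 CPM. Rpl36, Rpl6, Rpl3l and Rpl8 are among the 15 members with no RefSeq start window inside their interval, so their levels may not cover that start. The paralogues Rps27l, a p53 target, Rpl7l1 and Rpl22l1 had 27.1, 20.5 and 16.6 CPM, within the range of the standard genes. Neighbours in this order mostly differed by less than their spread: the coefficient of variation within lines was 5.4% to 18%, with a median of 9.6%.

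**Figure D1:**
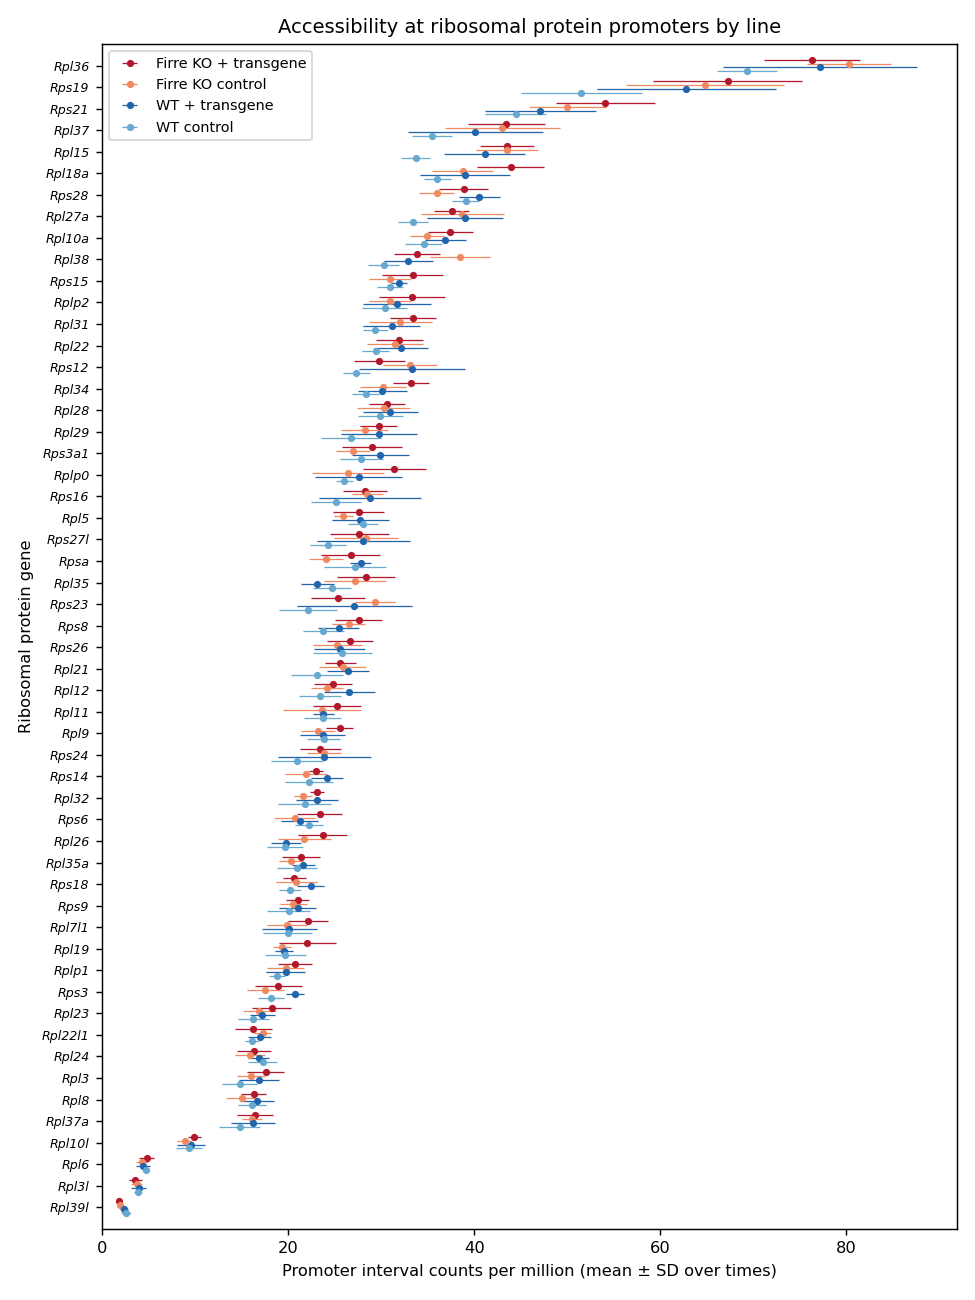
Mean promoter accessibility in CPM (x axis, ± SD over the times of a line) for 54 of the 57 genes (y axis, ordered by mean level), with 1 colour per line. Rpl36 and Rps19 lead at 75.7 and 61.6 CPM, and Rpl3l and Rpl39l close the order at 3.75 and 2.15 CPM, while the 4 lines lie close together for most genes.

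The members varied in features that the rule did not use. They lie on 18 chromosomes, with 10 on chromosome 7 and 4 on chromosome 11. In the deposited annotation 46 are labelled promoter, 5 exon, 4 intron and 2 TTS, the transcript end, and their widths run from 400 to 4053 bp. According to RefSeq, 18 of the genes host 32 small nucleolar RNA genes within their bounds, and 5 intervals also hold the start of another coding gene: Ndufa7 with Rps28, Lrsam1 with Rpl12, Lias with Rpl9, Iqcg with Rpl35a and Vps52 with Rps18. For those 5 the counts cannot be assigned to 1 of the promoters. Ribosomal protein genes have many processed pseudogenes, and the sources used here do not give the treatment of reads with several matches, so reads in exonic parts of the intervals may be split or shared. The members nearest inside the limit of 1000 bp were Rps15 (887 bp, 31.8 CPM), Rpl3 (-906 bp, 16.3 CPM) and Rps28 (953 bp, 38.5 CPM). The nearest outside were Rpl14 (-1115 bp, 27.3 CPM), Rpl18 (-1161 bp, 15.5 CPM) and Rpl7a (1427 bp, 7.96 CPM).

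The first comparison asked whether the line without Firre differed from the WT line, over all times. Of the 57 members, 7 were higher in the KO control than in the WT control and 0 were lower (edgeR quasi-likelihood test, Benjamini-Hochberg over 129515 intervals, adjusted p of 0.05 or less). That is 12.3%, where 5.5% of all tested intervals and 20.5% of other protein-coding promoters were called higher, and 2.47% and 0.741% were called lower (7.97% and 21.2% in either direction). At an unadjusted p under 0.05 there were 14 members, 24.6%, against 22.2% of all tested intervals and 39.4% of other promoters. The members' share was thus above that of all intervals for adjusted calls and below that of other promoters on both counts. They included Rps23, Rpl15, Rpl38, Rps19, Rps12 and Rpl37. The median log2 difference of the members was 0.04, against 0.12 for other promoters and -0.02 for all intervals, and 36 members were positive and 21 negative. Among the more open promoters, of at least 20 CPM (a limit chosen after values were seen), 7 of 44 members (15.9%) and 41.3% of 4105 other promoters were called higher, with medians of 0.08 and 0.22. The members' median was below that of the other promoters under every scaling, test, filter and left-out library run.

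Rps23, part of the decoding centre of the small subunit (chr13:90922773-90923998), had 27.6 CPM at the lowest, a median of 28.2 and 32.6 at the highest in the KO control, against 17.2, 22.1 and 26.6 CPM in the WT control. No library of the KO control overlapped with the WT control. The log2 difference was 0.40 ± 0.09 (SE, edgeR adjusted p = 0.00166).

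Rpl15, a large subunit protein (chr14:18269368-18271644), had 39.0, 43.7 and 49.1 CPM (lowest, median, highest) in the KO control, against 31.5, 33.6 and 36.0 CPM in the WT control. These groups did not overlap either, and the log2 difference was 0.36 ± 0.08 (edgeR adjusted p = 0.00187). Rpl38, a large subunit protein known in mice for its part in the translation of Hox messenger RNAs (chr11:114667424-114669822), had 33.2, 39.0 and 41.8 CPM in the KO control, against 28.2, 30.3 and 32.3 CPM in the WT control. Every KO control library was above every WT control library, by a log2 difference of 0.34 ± 0.08 (edgeR adjusted p = 0.00287). Rpl38 lies on chromosome 11, and the other 3 members there, Rpl26, Rpl23 and Rpl19, were not called.

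Rps19 had 54.6, 65.3 and 76.0 CPM in the KO control, against 44.1, 51.7 and 59.4 CPM in the WT control, so that the groups overlapped. Its log2 difference was 0.33 ± 0.09 (edgeR adjusted p = 0.00801). Rps12, a small subunit protein (chr10:23786023-23787839), had 29.3, 32.9 and 36.5 CPM in the KO control, against 24.8, 27.8 and 28.6 CPM in the WT control, without overlap (log2 0.28 ± 0.09, edgeR adjusted p = 0.0281). Rpl37, a large subunit protein (chr15:5115968-5117185), had 37.4, 41.1 and 54.6 CPM in the KO control, against 32.2, 35.9 and 38.5 CPM in the WT control, with overlap (0.27 ± 0.09, edgeR adjusted p = 0.0328).

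Of the rest, Rpl36 had 76.1 to 87.4 CPM in the KO control, against 63.3 to 71.8 CPM in the WT control, with no overlap, but did not pass (log2 0.21 ± 0.08, edgeR adjusted p = 0.0952). In all, 5 members had no overlap with higher KO control libraries and 0 with lower ones, where 2.29% and 0.801% of all tested intervals and 9.71% and 0.257% of other promoters did. By class, 3 of 28 large subunit members, 4 of 20 small subunit members, 0 of 3 stalk members and 0 of 6 paralogues were called. The 3 stalk genes had log2 differences of 0.02 to 0.05. The most negative member was Rpl39l, at 1.52, 1.93 and 2.22 CPM in the KO control, against 2.06, 2.51 and 3.45 CPM in the WT control (log2 -0.48 ± 0.21, edgeR adjusted p = 0.158). It rests on a median of 15 counts per library. Rpsa, a small subunit protein that is also known as a laminin receptor (chr9:120126779-120129138), had 24.1 ± 1.83 CPM in the KO control and 27.2 ± 3.33 CPM in the WT control (SD, n = 6 each), a log2 difference of -0.16 ± 0.09 (edgeR adjusted p = 0.255).

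**Figure D2:**
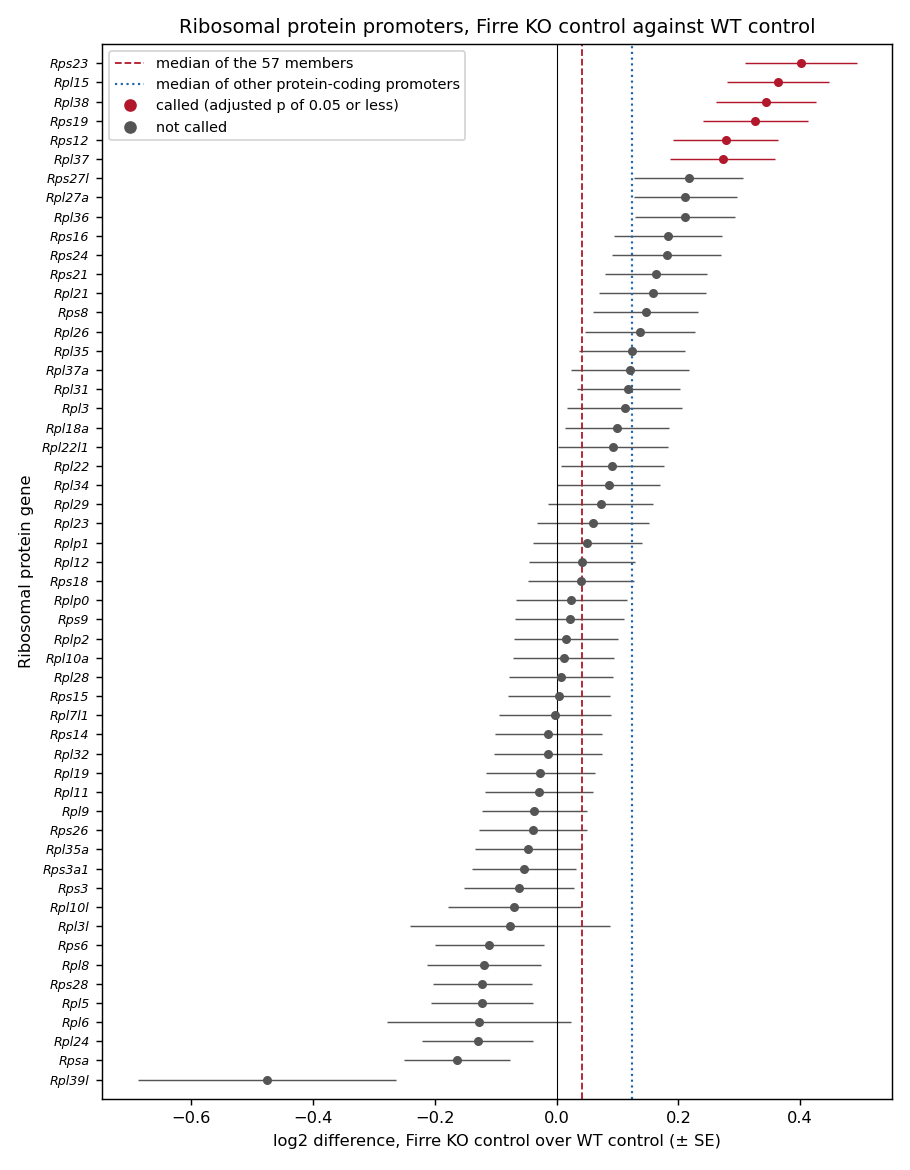
Log2 difference of the KO control over the WT control (x axis, ± SE) for 54 of the 57 members (y axis), called members in red. The 6 called members drawn lie between 0.27 and 0.40, the median of all 57 members (dashed) is 0.04 and that of other promoters (dotted) is 0.12, and under total counts or loess offsets the median of the members is negative.

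The share of counts in promoter intervals moved with these differences: it was 31.8% to 33.4% in the KO control and 29.3% to 30.5% in the WT control. With that share as a covariate 0 members were called, along with 0.0278% of all tested intervals and 0.0% of other promoters, so the loss was general. The log2 difference of Rps23 was then -0.01, that of Rpl15 0.10 and that of Rpl38 0.24. The shares of these lines did not overlap, so the covariate is bound up with line and this fit cannot decide between share and line. Markers of embryonic stem cells moved in the same direction: they summed to 198.6 to 246.3 CPM in the KO control and 176.5 to 199.4 CPM in the WT control. Of the 6, 3 (Esrrb, Zfp42 and Dppa5a) were called higher, where 5.5% of all tested intervals and 20.5% of other promoters were. All 6 had a mean of at least 20 CPM, and of other promoters at that level 41.3% were called higher. The medians were 0.24 for the markers and 0.22 for those promoters. The part of the promoter share in the result cannot be told from this fit, and that of these markers was not tested. The scaling also set the direction of the calls: 4 members were higher and 3 lower (Rpl5, Rps28 and Rpsa) under total counts, and 1 was higher (Rps23) and 10 lower under loess offsets, with medians of the members of -0.05 and -0.12. Of all tested intervals 2.98% were higher and 5.58% lower under total counts, and 2.74% higher and 2.12% lower under loess offsets. Of other promoters the shares were 12.7% and 2.7% under total counts, and 4.85% and 3.01% under loess offsets. As a share of the counts in protein-coding promoters, the members held 0.707% to 0.775% in the KO control and 0.772% to 0.811% in the WT control. The count of 7 also depended on single libraries: it was 3 without the KO control of 90 min, 4 without the KO control of 0 or 120 min or the WT control of 0, 90, 120 or 150 min, and 12 without the KO control of 150 min. The share of other promoters called higher, 20.5% in the main fit, moved too: it was 11.4% without the KO control of 90 min and 30.2% without that of 150 min. The members' count was 1 (Rpl38) without the KO control of both 30 and 90 min, where 4.55% of other promoters were called higher, and 4 without the 0 min libraries, where 14.9% were. Rps23, Rpl15 and Rpl38 were called in each of the 23 fits that left out 1 library.

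**Figure D3:**
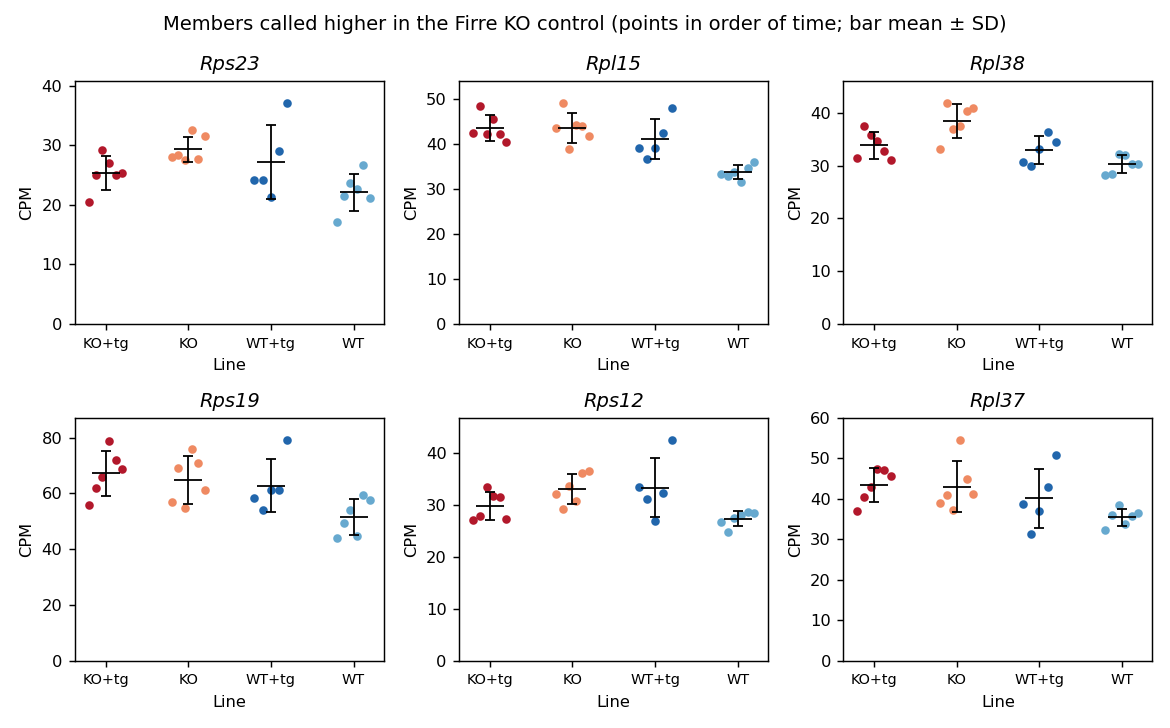
Promoter accessibility in CPM (y axis, from 0) in every library of 6 of the 7 called members, by line (x axis; tg, transgene), points in order of time within a line and bars giving the mean ± SD. The KO control lies above the WT control without overlap for Rps23, Rpl15, Rpl38 and Rps12 and with overlap for Rps19 and Rpl37, and in WT Firre the 150 min library is the highest for each of the 6 but Rpl38, where 120 min is.

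The second comparison set the KO line with the transgene against the KO control, over all times. None of the 57 members was called (0 with each of edgeR, DESeq2 and limma-voom), where 0.913% of all tested intervals and 0.36% of other promoters were called in either direction (0.569% and 0.154% higher, 0.344% and 0.206% lower). At an unadjusted p under 0.05 there were 6 members of 57, against 12.3% of all tested intervals and 8.85% of other promoters. The libraries of the groups overlapped for each of the 57 members, while 0.538% of all tested intervals were higher and 0.412% lower without overlap (0.268% and 0.36% of other promoters). The members' median log2 difference was 0.08, with 44 positive and 13 negative (77.2% positive), against -0.01 and 46.0% positive for other promoters. At 20 CPM or more the medians were 0.07 and -0.01. The smallest p was at Rplp0, the stalk protein that anchors Rplp1 and Rplp2 to the ribosome (chr5:115559031-115559977). It had 27.8, 30.2 and 37.0 CPM (lowest, median, highest) in KO Firre, against 22.7, 25.5 and 32.2 CPM in the KO control. The groups overlapped, and the log2 difference was 0.24 ± 0.09 (edgeR adjusted p = 0.179). It passed under loess offsets (adjusted p = 0.0217), with the stricter filter on counts (0.0481) and with promoter share added as a covariate (0.0448), but in none of the fits that left out 1 library, where its log2 difference was 0.169 to 0.307.

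Next in order of p were Rps23, with 20.4, 25.2 and 29.2 CPM in KO Firre, against 27.6, 28.2 and 32.6 CPM in the KO control (log2 -0.21 ± 0.09, edgeR adjusted p = 0.297), and Rpl38, with 31.1, 33.7 and 37.4 CPM in KO Firre, against 33.2, 39.0 and 41.8 CPM in the KO control (-0.18 ± 0.08, edgeR adjusted p = 0.307). Both are among the 7 members called between the control lines. The 2 comparisons share the KO control libraries, so their values are not independent. The other stalk genes, Rplp1 and Rplp2, had log2 differences of 0.09 and 0.12, and Rpsa had 0.14. The paralogues had a median of -0.03, with 2 positive and 4 negative.

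The third comparison set the WT Firre line against the WT control. Again none of the members was called (0 with each of edgeR, DESeq2 and limma-voom), where 0.0818% of all tested intervals and 0.0618% of other promoters were called in either direction (0.061% and 0.0515% higher, 0.0208% and 0.0103% lower). At an unadjusted p under 0.05 there were 10 members, 17.5%, against 7.55% of all tested intervals and 14.2% of other promoters. The median log2 difference was 0.09, with 50 of 57 positive (87.7%), and that of other promoters was 0.06, with 69.2% positive. At 20 CPM or more the order was the other way, with medians of 0.09 for members and 0.12 for other promoters, and 90.9% of each were positive. The smallest p was at Rps12, which had 33.5, 31.2, 26.9, 32.3 and 42.5 CPM at 0, 30, 90, 120 and 150 min in WT Firre, against 24.8, 27.8 and 28.6 CPM (lowest, median, highest) in the WT control. The groups overlapped, since the 90 min library lay within the range of the control. Its log2 difference was 0.28 ± 0.09 (edgeR adjusted p = 0.364).

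Rpl15 had 39.2, 36.7, 39.2, 42.4 and 48.1 CPM at the same times in WT Firre, against 31.5, 33.6 and 36.0 CPM in the WT control. No library overlapped, and the log2 difference was 0.27 ± 0.09 (edgeR adjusted p = 0.364). Rps19 had 58.3, 54.1, 61.1, 61.3 and 79.2 CPM in WT Firre, against 44.1, 51.7 and 59.4 CPM in the WT control, with overlap at 0 and 30 min (0.27 ± 0.09, edgeR adjusted p = 0.398). Rpl27a, a large subunit protein, was the other member without overlap, so that 2 of 57 had no overlap with higher WT Firre libraries, where 0.476% of all tested intervals and 1.03% of other promoters had none. In the lower direction 0 members did, against 0.365% and 0.206%. The 150 min library of WT Firre was the highest of its line for Rps12, Rpl15 and Rps19 and had the highest promoter share. Without it the members' median was 0.06, and Rps12, Rpl15 and Rps19 had log2 differences of 0.19, 0.20 and 0.18 (edgeR adjusted p = 0.865 for Rps12 and Rps19, and Rpl15 did not pass either). Adding promoter share as a covariate gave a members' median of -0.02. This comparison shares the WT control libraries with the first one.

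**Figure D4:**
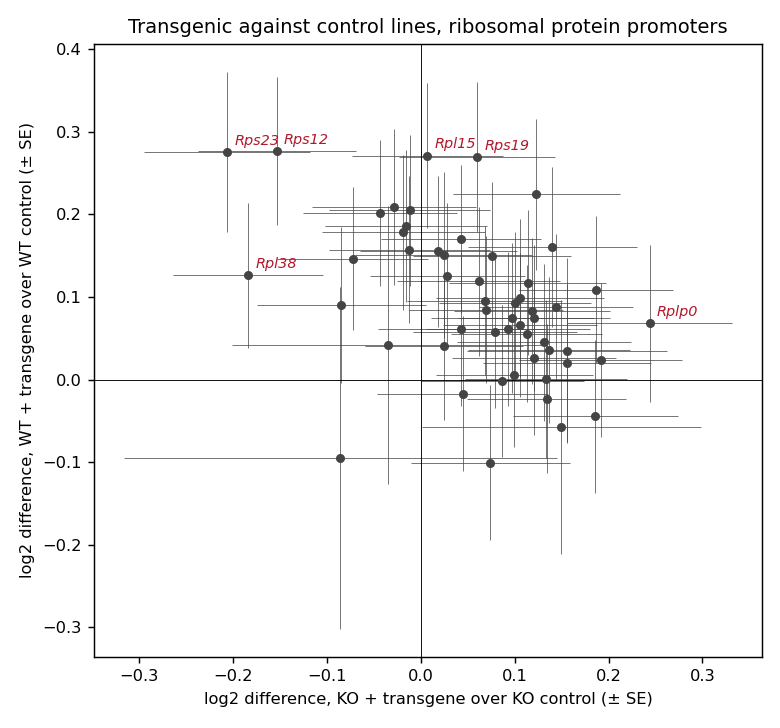
Log2 difference of KO Firre over the KO control (x axis) and of WT Firre over the WT control (y axis), each ± SE, for 54 of the 57 members. Rps23, Rps12 and Rpl38 lie at the left, with -0.21, -0.15 and -0.18 in the KO background and 0.28, 0.28 and 0.13 in the WT background, and none was called in either background.

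The difference between the transgene contrasts, WT background minus KO background, was tested directly. It contains the KO control minus the WT control, so a high KO control or a low WT control alone raises it. None of the members was called (0 with each of edgeR, DESeq2 and limma-voom), where 0.266% of all tested intervals (0.138% higher, 0.128% lower) and 0.34% of other promoters (0.278% and 0.0618%) were called. At an unadjusted p under 0.05 there were 5 members, 8.77%, against 10.6% and 13.5%. The median was 0.02 for the members and 0.08 for other promoters. The sign of the members' median changed with single libraries: it was -0.0214 without the WT Firre library of 150 min, -0.00826 without that of 0 min, -0.00437 without the WT control of 150 min and -0.00157 without the KO control of 30 min. The smallest p was at Rps23 (0.48 ± 0.13, edgeR adjusted p = 0.0779), followed by Rps12 (0.43 ± 0.12, edgeR adjusted p = 0.102) and Rpl38 (0.31 ± 0.12, edgeR adjusted p = 0.287). All of these are among the members called higher in the KO control than in the WT control, from the same libraries. Rps23 passed under loess offsets and with the stricter filter, and without the KO control of 60 min (edgeR adjusted p = 0.0442), the KO control of 150 min (0.0211) or the WT Firre library of 90 min (0.00955). Rps12 passed with the stricter filter and without the KO control of 150 min (0.0445) or the WT Firre library of 90 min (0.0265). In other fits the values were smaller: with promoter share as a covariate Rps23 had 0.19 (adjusted p = 0.732) and Rps12 0.27 (0.521), and without the WT Firre library of 150 min they had 0.36 (0.25) and 0.35 (0.234).

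The time course was compared between transgenic and control lines, with the 2 backgrounds as the replicates of the response at 30 to 150 min relative to 0 min. For the mean Firre response none of the members was called by edgeR, DESeq2 or limma-voom and 0 had an unadjusted p under 0.05, where 0.0% of all tested intervals were called and 3.77% (2.26% of other promoters) had an unadjusted p under 0.05. The median was -0.0022 and the members ranged from -0.41 to 0.50. The smallest p was at Rpl10l, which had 10.4 CPM at 0 min and 8.85, 10.9, 9.81, 9.55 and 9.97 CPM from 30 to 150 min in KO Firre, against 7.70 and then 8.15, 9.01, 9.76, 9.33 and 9.31 CPM in the KO control. It had 10.4, 8.49, 8.87, 8.11 and 11.8 CPM at 0, 30, 90, 120 and 150 min in WT Firre, against 7.45, 9.63, 8.25, 9.64 and 11.6 CPM in the WT control at those times. Both transgenic lines were above their controls at 0 min. Its response was -0.41 ± 0.22, and those of Rpl35a and Rpl6 were -0.30 ± 0.17 and 0.50 ± 0.29 (edgeR adjusted p = 1.0 each). Rpl6 rests on 4.57 CPM, and its response was 0.294 without the WT Firre library of 0 min and 0.743 without the KO Firre library of 0 min. The median SE of a member was 0.17 in this test and 0.09 between the control lines, so the control lines allowed smaller differences to be called.

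At any time, the shape of the course differed between transgenic and control lines for none of the members (0 with each of edgeR, DESeq2 and limma-voom). Of all tested intervals 0.000772% were called and 4.42% (3.4% of other promoters) had an unadjusted p under 0.05, against 0 of the members. The smallest p values included those at Rplp0 and Rps27l (edgeR adjusted p = 0.9998 each). Rplp0 had 27.8, 37.0, 29.4, 30.7, 33.8 and 29.7 CPM from 0 to 150 min in KO Firre, against 24.9, 22.96, 26.1, 32.2, 29.9 and 22.7 CPM in the KO control. It had 24.2, 25.9, 26.5, 25.5 and 35.8 CPM at 0, 30, 90, 120 and 150 min in WT Firre, against 27.1, 25.03, 26.6, 25.5 and 25.1 CPM in the WT control at those times. Its highest values were at 30 min in KO Firre and at 150 min in WT Firre.

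In the control lines, which received doxycycline without a transgene, none of the members was called after 0 min (0 with each of edgeR, DESeq2 and limma-voom). Of all tested intervals 0.0% were called and 5.26% (5.76% of other promoters) had an unadjusted p under 0.05, against 3 of the members (5.26%). The median response was 0.12 with 53 of 57 positive (93.0%), while other promoters had 0.07 with 68.7% positive. At 20 CPM or more the medians were 0.12 for members and 0.11 for other promoters, with 93.2% and 88.2% positive. The 3 smallest p values were at Rpl7l1 (0.35 ± 0.13, edgeR adjusted p = 0.922), Rps24 (0.28 ± 0.13, edgeR adjusted p = 0.942) and Rpl29 (0.25 ± 0.12, edgeR adjusted p = 0.946). The 0 min library was the lowest of its line in the summed level of the members in 3 of the 4 lines: 1463 CPM in KO Firre, 1467 CPM in the KO control and 1344 CPM in the WT control, against 1609 to 1691, 1496 to 1628 and 1420 to 1507 CPM at the later times. In WT Firre it had 1512 CPM, within the 1453 to 1810 CPM of the other times. Depth at 0 min was 6691742 to 7504795 counts, within the range of all libraries, but the lowest of its line in KO Firre (6993739) and the WT control (6691742). The promoter share at 0 min was the lowest of its line in both control lines, 31.8% in the KO control and 29.29% in the WT control. The response in the control lines has those 0 min libraries as its baseline, and the part of their share and depth was not tested.

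**Figure D5:**
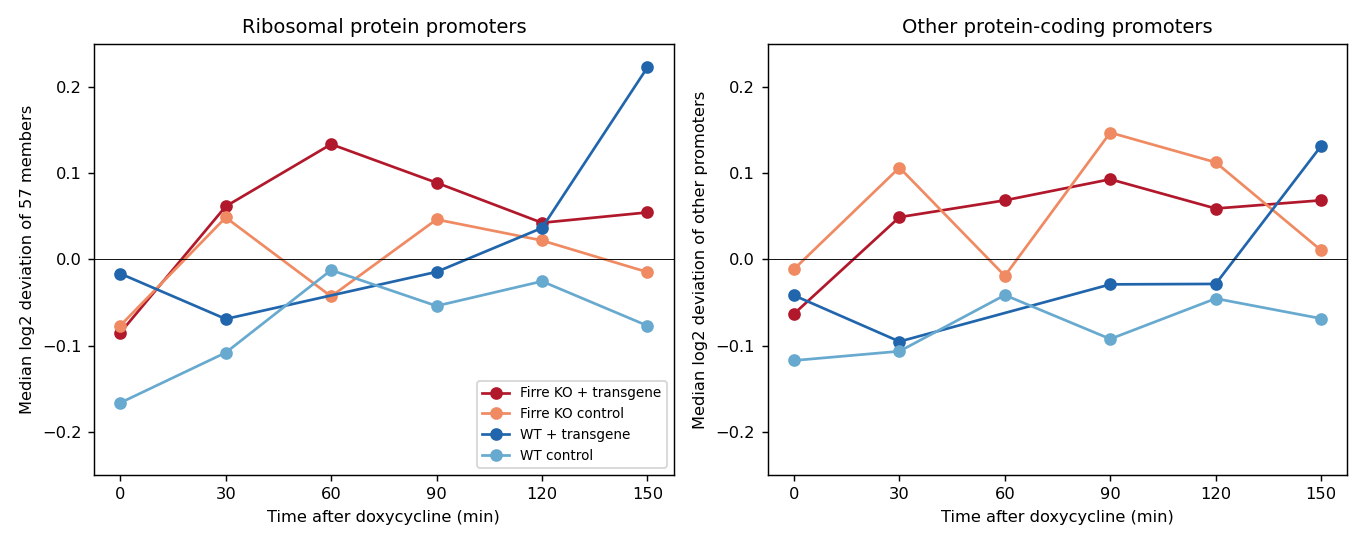
Median over intervals of the log2 deviation from each interval's mean over 23 libraries (y axis) by minutes after doxycycline (x axis), for the 57 members on the left and the other protein-coding promoters on the right, with 1 line per cell line and no WT Firre value at 60 min. The members range from -0.17 in the WT control at 0 min to 0.22 in WT Firre at 150 min, and the other promoters move with them within -0.12 to 0.15.

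Other genes of the pathway were read from lists of ribosomal proteins outside the name rule, translation factors with terminal oligopyrimidine tracts, ribosome assembly factors, and growth and mTOR regulators. Between the control lines, 3 of 7 measured ribosomal proteins outside the rule were higher in the KO control: Rpl10 (log2 0.31 ± 0.09, edgeR adjusted p = 0.0103) and Rpl39 (0.33 ± 0.10, 0.0207) on the X chromosome and Rack1, a scaffold of the small subunit (0.26 ± 0.09, 0.0436). Of the translation genes 2 of 8 were higher, Eif4a1, a helicase of translation initiation (0.37 ± 0.08, 0.0014), and Eif4b, its cofactor (0.25 ± 0.09, 0.049). Of the assembly genes 3 of 11 were higher, Heatr1, Pes1 and Ltv1. Of the growth regulators 2 of 9 were, Sp1, the factor of the GC box, and Larp1, which binds terminal oligopyrimidine tracts. Rack1, Eif4a1, Pes1 and Larp1 lie on chromosome 11, as does the called member Rpl38. Npm1, Ubtf and Rps6kb1 of these lists also lie there and were not called. The part of chromosome position was not tested. In these lists 0 were lower, and in the other comparisons 0 of their genes were called. The medians were 0.26 for the ribosomal proteins outside the rule, 0.21 for the translation genes, 0.12 for the assembly genes and 0.11 for the growth regulators. Other promoters had 0.12, with 20.5% called higher, and of all tested intervals 5.5% were. Most measured genes of each list had a mean of at least 20 CPM. Other promoters at that level had a median of 0.22, with 41.3% called higher.

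A further 26 autosomal coding genes with ribosomal protein names in RefSeq lay outside the rule, and 15 of them had an interval at a RefSeq start. Of those intervals 4 were named for a small nucleolar RNA inside the gene (Rpl13, Rpl13a, Rpl7a and Rps2) and others for a neighbour on a shared or nearby start, such as Zwilch at Rpl4. Between the control lines 3 of the 15 were higher in the KO control, where 20.5% of other promoters and 5.5% of all tested intervals were. These were Rpl27 on chromosome 11 (0.37 ± 0.09, edgeR adjusted p = 0.00262), Rpl13a (0.26 ± 0.09, 0.0393) and Rpl36al, whose interval is named for Mgat2 (0.25 ± 0.08, 0.046). The interval at Rpl4, named for Zwilch, was lower (-0.31 ± 0.09, edgeR adjusted p = 0.0155), at 18.7 ± 2.51 CPM in the KO control and 23.2 ± 2.26 CPM in the WT control (SD, n = 6 each). Their median was 0.08, with 11 of 15 positive, and 0 were called in the comparisons of transgenic with control lines or over time.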

How the data were processed

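The deposited table holds raw counts of reads per consensus interval, made by the authors with MACS2 2.2.7.1 peaks and featureCounts on mm10, per the submitters' processing notes, and the deposited annotation gives each interval's gene and distance to the start. Not given in the sources used here are the aligner, the handling of duplicates and of the transposase offset, and which annotation release was used. Counts were fitted in edgeR 4.0.16 (R 4.3.3, TMM factors 0.9366 to 1.058, quasi-likelihood, minimum count 10 with lines as groups). Of 145143 intervals, 129515 were tested, all 57 members included, and called at an adjusted p of 0.05 or less. The terms were line and time (14 residual degrees of freedom), and for time courses also transgene by time (9). The time term is the block for the replicate numbers, which are the minutes in the labels. CPM uses TMM library sizes, and the deviation plot adds 0.5 CPM before log2. A promoter interval lies at most 1000 bp from a start, and the promoter share is its part of all counts. Alternatives used DESeq2 1.42.0, limma 3.58.1, other scalings and filters, and fits without single libraries. The fits were tested on simulated data with known changes. The changes were all upward, in intervals drawn at random above a floor of mean counts. None was below 1.5-fold, so the smaller differences of the called members were not simulated. Between the control lines 73.1% of 1.5-fold and 98.5% of 2-fold changes were called. For the mean Firre response 11.9% and 43.3% were, so smaller responses could be missed.

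Named members were the stalk genes, Rpsa, the 6 highest and 6 lowest by mean CPM, the paralogues, every called member, the 3 with the smallest p where none was called, and those nearest the 1000 bp limit. The values of 3 members are not reported here by name, though they enter every count, sum and median. Other members named were chosen after their values were seen. The members and lists were chosen with earlier results of these data known. Letters were searched in RefSeq windows of GRCm38.p6. Counting error alone sets a limit of 3 counts, 0.391 CPM in a library of median depth, for an interval at 0.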

Additional observations from a re-analysis of the deposited data

Results flagged for a closer look

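Among 100 sets of values (a line's libraries for 1 member or for the members' sum), 7 had 1 library far from the others, by a test that flags about 1 in 20 sets by chance. The summed level of the members was 1463 CPM in KO Firre at 0 min, against 1609 to 1691 CPM at its other times. Of the WT Firre libraries, that of 150 min was apart for Rps19 (79.21 CPM, the others 54.06 to 61.32), Rplp0 (35.79 CPM, the others 24.17 to 26.47) and Rpl8 (19.77 CPM, the others 15.28 to 16.36). Rplp1 had 23.7 CPM in the KO control at 30 min, against 18.69 to 19.41 CPM at its other times. In the WT control, Rpl22l1 had 17.49 CPM at 90 min (the others 15.47 to 16.14) and Rpl36 had 63.33 CPM at 0 min (the others 68.84 to 71.79).

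Rpl38 differed in direction between the backgrounds. WT Firre was above the WT control at all 5 matched times, by 3.06 CPM on average, and KO Firre was below the KO control at all 6 times, with a mean difference of -4.62 CPM. The test of this difference over all intervals gave a log2 value of 0.31 (edgeR adjusted p = 0.287), which did not pass. Rpl38 was also called higher in the KO control than in the WT control, and a high KO control alone raises this value.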

How the results depend on the processing

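Between the KO control and the WT control, where 7 members were called, 11 were called under loess offsets (1 higher, 10 lower), 0 with the promoter share as a covariate, 1 without the KO control of 30 and 90 min and 4 without the 0 min libraries. Leaving out 1 library gave 3 to 12, and in the fits with 3 and 12 the share of other promoters called higher was 11.4% and 30.2%. With that covariate called members changed sign, to -0.00534 (Rps23), -0.0103 (Rps19) and -0.0723 (Rpl37). Total counts gave 4 higher and 3 lower, and a mean of at least 50 counts gave 4 higher and 6 lower. With that stricter filter 10.4% of all tested intervals were higher and 7.79% lower, and 19.4% and 3.25% of other promoters. The fit without the time term, which serves as the replicate block, also called 7, so the pairing by time changed no call there. The median of all intervals was -0.0243, and -0.117 under total counts.

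For KO Firre against the KO control, loess offsets called 2 members, and the stricter filter and the covariate 1 each. Of all tested intervals, loess offsets called 2037 of 129515, the stricter filter 1188 of 42157 and the covariate 1396 of 129515. For the difference of the transgene contrasts, loess offsets called 1 member and the stricter filter 2, and leaving out 1 library gave 0 to 2. There loess offsets called 698 of 129515 tested intervals and the stricter filter 704 of 42157. The log2 ratio of the summed level, KO control over WT control, was 0.103, but 0.0112 on total counts and -0.0956 as a share of coding promoter counts; WT Firre over WT control was 0.113, and 0.00812 as such a share. For these values the cause was not tested. Of the log2 values of named members, 661 kept direction and call over the alternatives, 38 lost the call, 11 gained it and 3 changed sign. Each line had 1 library per time, and low members such as Rpl39l are limited by depth.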
